A study of Mus musculus with 8 samples.

Results

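The mouse kidney lines mK3 and mK4 were each profiled by ATAC-seq, an assay in which a transposase cuts accessible DNA, and the authors deposited 1 list of accessible regions (peaks) per line. The peaks described here are those listed in mK4 only: mK4 peaks on chromosomes 1 to 19, without chromosomes 3, 7, 14 and 15, that share no base with any mK3 peak. They were chosen by the coordinates of the peaks in both lists, and so by the same ATAC signal that is described below for strength and overlap. They numbered 13243 of the 25805 mK4 peaks on these 15 chromosomes (51.3%), the other 12562 sharing bases with an mK3 peak, and the whole mK4 list held 34756 peaks. The mK3 list held 22516 peaks, 17257 of them on the same chromosomes, of which 4788 (27.7%) shared no base with an mK4 peak. Both lines are of metanephric mesenchyme, wild type and untreated, and were kept in the same medium. The labels call mK3 uninduced and mK4 differentiated towards epithelium. RNA was sequenced from 3 further libraries per line, with 137559391 to 152952351 counts per library. Each state was represented by a single cell line, and ATAC-seq by 1 library per line.

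The metanephric mesenchyme is the embryonic tissue that condenses around the ureteric bud and, once induced, turns into the epithelium of the nephron. Promoters and enhancers in use are usually depleted of nucleosomes, which makes them accessible to the transposase, and enhancers often differ more between cell states than promoters do. Pax2, Pax8 and Sall1 encode transcription factors of the developing nephron. A peak that is missing from a list did not pass the peak caller's threshold, so a region listed in mK4 only can still hold signal in mK3, which was not measured here.

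Promoters are shown first for 6 genes whose start was covered by such a peak, since later results turn on them. Akr1e1 and Scn2a had the strongest peaks at a start, Sall1 and Pax8 are nephron regulators, Pcbd1 had the largest bound on its increase among the genes named for their RNA, and Ifit1 stands for interferon-response genes whose RNA was lower in mK4. Each window runs from 250 bases before to 50 bases after a RefSeq start in GRCm38.p6, on the strand of the gene, 5′ to 3′. Capitals mark matches to the motif letters searched below.
Akr1e1, chr13:4609115-4609414, minus strand: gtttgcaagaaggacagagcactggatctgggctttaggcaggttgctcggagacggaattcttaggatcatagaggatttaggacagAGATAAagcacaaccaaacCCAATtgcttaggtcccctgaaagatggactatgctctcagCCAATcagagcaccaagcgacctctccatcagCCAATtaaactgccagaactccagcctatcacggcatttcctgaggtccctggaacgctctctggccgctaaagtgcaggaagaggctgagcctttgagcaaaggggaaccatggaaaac
Scn2a, chr2:65668436-65668735, plus strand: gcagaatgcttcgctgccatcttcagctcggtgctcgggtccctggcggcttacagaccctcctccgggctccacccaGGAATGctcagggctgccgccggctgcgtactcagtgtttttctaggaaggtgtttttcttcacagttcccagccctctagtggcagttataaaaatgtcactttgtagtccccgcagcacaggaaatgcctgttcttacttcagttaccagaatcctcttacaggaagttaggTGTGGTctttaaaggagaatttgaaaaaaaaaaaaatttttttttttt
Sall1, chr8:89043463-89043762, minus strand: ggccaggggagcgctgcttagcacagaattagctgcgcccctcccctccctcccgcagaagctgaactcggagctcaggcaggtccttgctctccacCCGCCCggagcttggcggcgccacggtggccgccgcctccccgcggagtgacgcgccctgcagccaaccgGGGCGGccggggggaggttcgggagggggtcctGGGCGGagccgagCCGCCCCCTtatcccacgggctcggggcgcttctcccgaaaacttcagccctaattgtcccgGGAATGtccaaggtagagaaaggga
Pax8, chr2:24475550-24475849, minus strand: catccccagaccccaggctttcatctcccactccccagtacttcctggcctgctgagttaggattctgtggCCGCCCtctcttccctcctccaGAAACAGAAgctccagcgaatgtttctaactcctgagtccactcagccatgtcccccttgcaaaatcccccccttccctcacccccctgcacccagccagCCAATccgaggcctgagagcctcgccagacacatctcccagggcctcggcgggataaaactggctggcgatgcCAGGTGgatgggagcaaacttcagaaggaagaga
Pcbd1, chr10:61089081-61089380, plus strand: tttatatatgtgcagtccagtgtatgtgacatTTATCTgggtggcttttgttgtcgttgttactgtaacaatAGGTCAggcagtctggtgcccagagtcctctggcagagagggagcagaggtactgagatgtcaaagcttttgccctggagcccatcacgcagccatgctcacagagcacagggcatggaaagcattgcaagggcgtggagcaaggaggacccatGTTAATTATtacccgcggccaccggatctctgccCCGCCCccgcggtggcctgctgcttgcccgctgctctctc
Ifit1, chr19:34640639-34640938, plus strand: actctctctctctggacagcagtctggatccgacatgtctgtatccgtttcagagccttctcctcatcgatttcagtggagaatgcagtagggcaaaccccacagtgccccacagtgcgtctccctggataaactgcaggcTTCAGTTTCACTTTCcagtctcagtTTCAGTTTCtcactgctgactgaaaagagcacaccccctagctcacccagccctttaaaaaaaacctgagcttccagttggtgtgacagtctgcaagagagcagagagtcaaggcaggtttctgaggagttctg
The mK4-only peak covered all 300 bases of the Akr1e1, Scn2a and Sall1 windows, 244 of Pax8, 223 of Ifit1 and 113 of Pcbd1. The windows differed in composition, from 47.7% G and C with 9 CpG in Scn2a to 70.0% with 27 CpG in Sall1.

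As a class, the mK4-only peaks were the weaker and narrower peaks of the mK4 list. Their median fold enrichment, the authors' value over the caller's background, was 4.09 (range 1.98 to 13.9), against 5.98 for shared mK4 peaks. The median -log10 q, also the authors', was 7.38 against 18.6, and the median width was 281 bp against 459 bp. Peaks in mK3 only had lower medians still in the mK3 list, with a fold enrichment of 3.48, a -log10 q of 5.61 and a width of 266 bp. Of the 2581 mK4 peaks in the weakest decile by -log10 q, 2243 (86.9%) were listed in mK4 only, and in the strongest decile 200 of 2581 (7.75%) were. The share fell in every step between them. When the mK4 list was shortened to its strongest peaks, as many as the mK3 list holds in all, 6194 of 16806 peaks on these chromosomes (36.9%) had no mK3 partner.

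**Figure D1:**
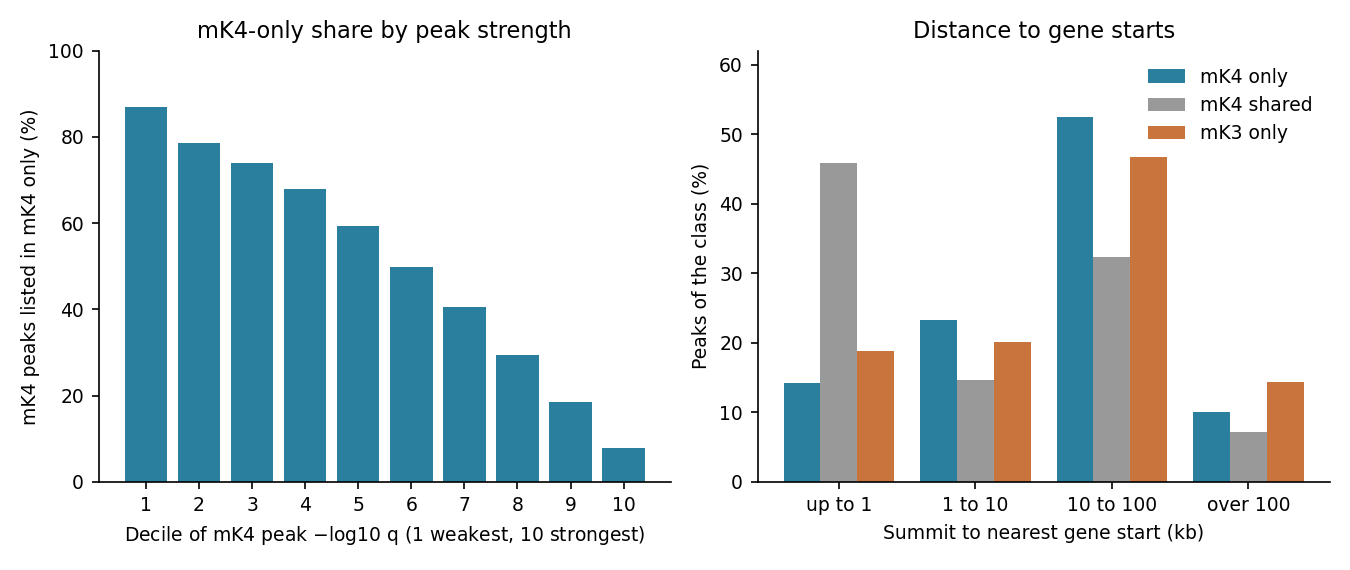
Left, the share of mK4 peaks listed in mK4 only (%) in each decile of mK4 peaks by the authors' -log10 q. Right, the share of peaks (%) by distance from summit to nearest RefSeq gene start, for peaks in mK4 only, mK4 peaks shared with mK3, and peaks in mK3 only. The mK4-only share falls from 86.9% to 7.75%, and mK4-only peaks lie within 1 kb of a start less often (14.2%) than shared peaks (45.8%).

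The rule separated some neighbouring peaks by a few bases. The 10 mK4-only peaks nearest to an mK3 peak lay 0 to 13 bases from it, 3 of them directly adjoining it, and had fold enrichments of 3.02 to 7.54 (median 3.90). The 10 mK4 peaks that just failed the rule shared 1 to 10 bases with an mK3 peak and had fold enrichments of 2.75 to 5.85 (median 3.31). Such cases were few. The median distance to the nearest mK3 peak was 19600 bases, 1000 mK4-only peaks (7.55%) lay under 500 bases away, and 1485 (11.2%) lay 100000 bases or more away.

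Most mK4-only peaks lay away from gene starts. RefSeq starts were available on 14 of the chromosomes, and chromosome 18 is described by gene bodies alone. Among 12716 mK4-only peaks on those 14 chromosomes, 1801 (14.2%) had their summit within 1 kb of a start, against 5470 of 11953 shared mK4 peaks (45.8%) and 846 of 4497 mK3-only peaks (18.8%). A further 2957 (23.3%) lay 1 to 10 kb from a start, 6680 (52.5%) lay 10 to 100 kb away and 1278 (10.1%) over 100 kb away. The median distance was 17315 bases, close to the 17377 bases of mK3-only peaks and far above the 2700 bases of shared peaks. Gene bodies held 8299 of the 13243 peaks (62.7%), against 59.0% of shared and 60.1% of mK3-only peaks. Exons, introns and untranslated regions within the gene bodies were not analysed.

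The mK4-only share differed between chromosomes, and so did the RNA. It ran from 42.2% of mK4 peaks on chromosome 17, 43.9% on chromosome 10 and 45.7% on chromosome 9 to 56.7% on chromosome 19 and 59.0% on chromosome 6. The median log2 fold change (mK4 over mK3) of all tested genes was -0.18, -0.34 and -0.21 on chromosomes 17, 10 and 9 and 0.17 and 0.14 on chromosomes 19 and 6. The part of whole-chromosome differences between the lines in the peak and RNA values below was not tested.

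RNA was a measurement the rule had not used, so it was compared at genes that carried an mK4-only peak. A gene was placed by the peaks within 1 kb of any of its RefSeq starts, called the start below. Such a start can lie inside the gene, as for the peaks of Pax2, Scn2a, Mical3, Mylk, Zeb2, Tfap2a and Sp140, among others. RNA was tested with edgeR's quasi-likelihood test on counts, with calls at a Benjamini-Hochberg adjusted p under 0.05. Whether the 3 libraries of a line are separate cultures is not stated in the labels. The p-values therefore measure only how these libraries vary, and that variation may be technical. In bulk RNA, fewer cells that express a gene and less RNA per cell cannot be told apart. In total 1065 genes had an mK4-only peak and no mK3 peak at the start, and 931 of them had enough counts to be tested.

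Genes with an mK4-only peak alone at the start were called higher in mK4 more often than lower. Of the 931, 333 (35.8%, exact binomial 95% interval 32.7 to 38.9) were higher in mK4 and 132 (14.2%, 12.0 to 16.6) were lower. The background was 20.8% higher and 19.5% lower over all 20405 tested genes, and 21.1% higher and 22.7% lower over the 9341 tested genes with a start on these chromosomes. At least a 2-fold difference was found for 240 of the higher and 46 of the lower genes. Over the 9341 tested genes with a start it was found for 1110 higher and 950 lower genes. The median level of the 931 genes went from 8.30 CPM (counts scaled to library size with TMM factors) in mK3 to 13.7 CPM in mK4. Their median log2 fold change was 0.31 against -0.01 for all tested genes with a start. Of the 931, 47 had no count in any mK3 library. These could pass the filter on low counts through mK4 alone, so their calls are no support for a direction. Among start genes that reached 1 CPM in each of the 6 libraries, 32.8% of 692 were higher, against 23.0% of 6886 for all genes with a start. Intervals cover counting error only, and genes are not independent of each other.

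The other start classes gave different splits. Where an mK4-only peak and an mK3 peak both lay within 1 kb, 23.4% of 661 tested genes were higher and 25.6% lower. With a shared peak and no mK4-only peak the shares were 19.2% and 23.4% of 4902, and with no peak 20.6% and 20.1% of 2413. Genes with an mK3 peak alone showed the opposite split, with 10.6% of 434 higher in mK4 (7.86 to 13.9) and 44.2% lower (39.5 to 49.1). The interval for higher genes at mK4-only starts did not reach that of any other class.

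**Figure D2:**
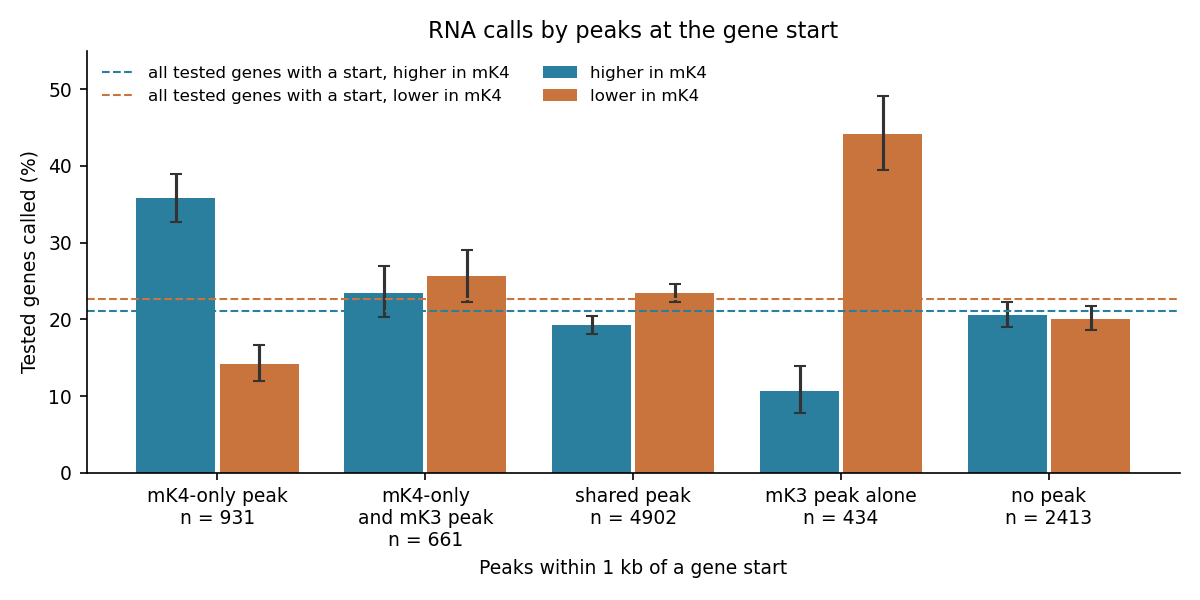
Share of tested genes (%) called higher (blue) or lower (orange) in mK4, by the peaks within 1 kb of a gene start. Bars carry exact binomial 95% intervals, n is the number of tested genes, and dashed lines mark all tested genes with a start. The class with an mK4-only peak alone has 35.8% higher and 14.2% lower genes.

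The split held on most chromosomes. The share called higher among genes with an mK4-only peak at the start was above that of all tested genes with a start on the same chromosome in 13 of 14 chromosomes, the exception being chromosome 17 (10.3% of 68 against 11.4%). The share called lower was below that of the same chromosome in 13 of 14, the exception being chromosome 5 (31.3% of 67 against 24.7%). In 3 classes of equal size by peak strength, 32.9% of genes were higher at the weakest peaks (fold enrichment 2.26 to 3.77), 31.7% in the middle and 42.7% at the strongest (4.67 to 12.7). The interval of the strongest class, 37.1 to 48.4, overlapped that of the weakest, 27.7 to 38.5.

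The 10 genes named for the largest increases with an mK4-only peak alone at the start included the nephron regulator Pax2. Pax2, needed for the mesenchyme to become epithelium, had no counts in any of the 3 mK3 libraries, against 27.9, 27.3 and 34.7 CPM in the mK4 libraries. Against a floor of 3 counts per library it was at least 1240-fold higher (edgeR adjusted p = 5.63e-05). The bounds given here hold only if a listed 0 stands for no more than 3 counts. A gene at 0 in all mK3 libraries could pass the filter on low counts through mK4 alone. Its call is therefore no support for a direction. The peak at a Pax2 start inside the gene, chr19:44756239-44756615, had a fold enrichment of 3.13 and lay 46960 bases from the nearest mK3 peak. Pax2 carried 4 mK4-only peaks in all, counting the gene body and the 10 kb before it.

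Sall1 and Pax8, named from the gene lists read below and not among those 10, showed the same pattern at different starting levels. Sall1, whose loss blocks kidney formation, had no counts in mK3, while the mK4 libraries held 10.4, 10.1 and 10.4 CPM, a rise of at least 426-fold (edgeR adjusted p = 6.83e-05). Its peak, chr8:89042956-89043825 (fold enrichment 6.39), covers the whole window printed above. Pax8, which acts beside Pax2, was at 0.640, 0.733 and 0.475 CPM in mK3 and 35.6, 39.1 and 43.5 CPM in mK4, with a log2 fold change of 5.996 ± 0.214 (SE, edgeR adjusted p = 1.72e-05). Its mK4-only peak, chr2:24474678-24475793, was 20931 bases from the nearest mK3 peak. The libraries of the lines did not overlap for Pax8. Pax2 was chosen on that condition, and Sall1 had no counts in mK3.

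Several other genes at 0 in all mK3 libraries had the largest bounds. Pcbd1, which encodes a pterin dehydratase that also serves as dimerization cofactor of HNF1, reached 70.4, 78.8 and 64.9 CPM in the mK4 libraries and was at least 2954-fold higher (edgeR adjusted p = 3.00e-05). Its peak, chr10:61089268-61089513, had a fold enrichment of 4.18. Nup210, a nuclear pore gene, was at 66.1, 60.2 and 74.9 CPM in mK4 and at least 2777-fold higher. Sim1, a transcription factor gene, was at 68.0, 60.6 and 45.5 CPM and at least 2404-fold higher, with the strong peak chr10:50894214-50895034 (fold enrichment 9.08). Tnfrsf21, which encodes a receptor of the TNF family, was at least 1719-fold higher, and Arhgef5 at least 1094-fold. The adhesion gene Cadm2, at least 894-fold higher, had the strongest start peak of these genes (chr16:67620557-67621391, fold enrichment 9.78), 1620825 bases from the nearest mK3 peak. The kinase gene Hunk, at least 865-fold higher, had one of the weakest, with a fold enrichment of 3.12. Their adjusted p in edgeR was 8.99e-05 (Sim1) or less. All of these genes could pass the filter on low counts through mK4 alone, so their calls are no support for a direction.

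The remaining large increases started from a trace of RNA in mK3. Sdk1, which encodes an adhesion protein of the immunoglobulin family, was at 0.216, 0.0982 and 0 CPM in mK3 and 379, 367 and 279 CPM in mK4, a log2 fold change of 11.61 ± 0.78 (edgeR adjusted p = 1.26e-04). It also carried 21 mK4-only peaks, the joint highest number of any gene. Mboat2, a phospholipid acyltransferase gene, had a CPM of 0.0378 in 1 mK3 library and 0 in the others, and 29.5, 29.0 and 20.3 CPM in mK4 (log2 fold change 10.94 ± 0.77, edgeR adjusted p = 1.50e-04). Both were chosen among genes whose libraries did not overlap between the lines. Both could pass the filter on low counts through mK4 alone, so their calls are no support for a direction.

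**Figure D3:**
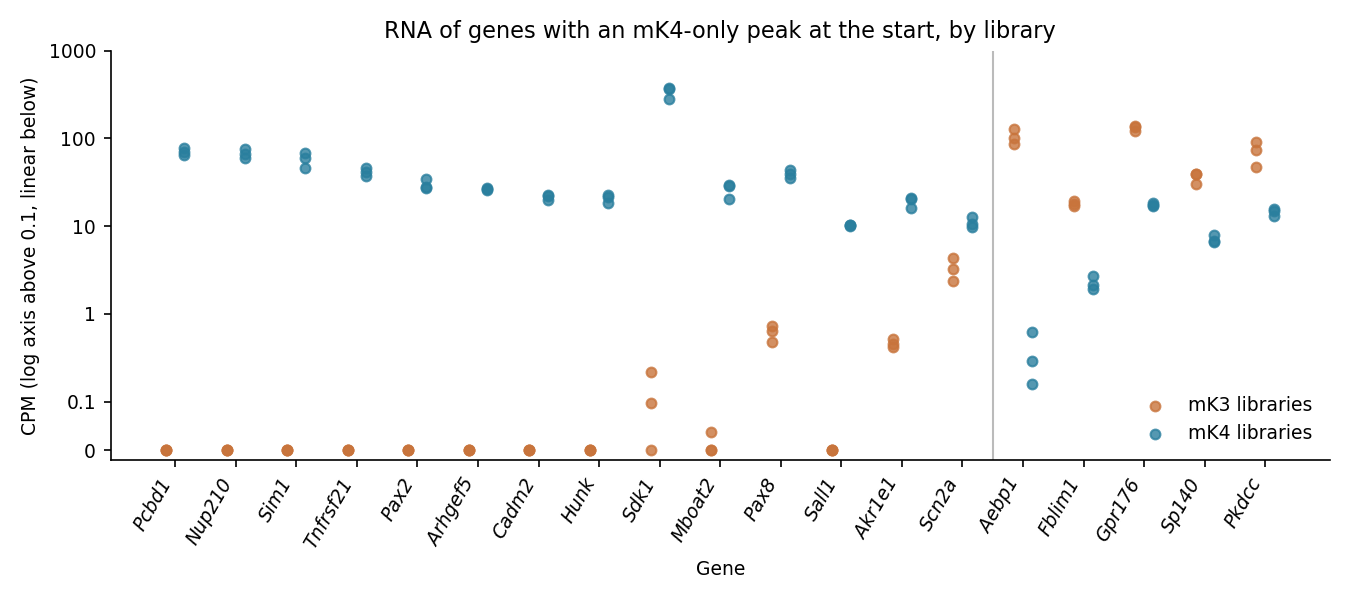
RNA level (CPM, log axis above 0.1 and linear below) in each of 3 mK3 (orange) and 3 mK4 (blue) libraries for 19 genes with an mK4-only peak and no mK3 peak at the start. Genes left of the line are higher in mK4, with 9 of them at 0 in all mK3 libraries, and the 5 genes right of the line are lower.

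A minority of genes with an mK4-only peak at the start fell. Aebp1, which encodes a secreted protein of the extracellular matrix, was at 129, 86.3 and 102 CPM in mK3 and 0.293, 0.158 and 0.620 CPM in mK4 (log2 fold change -8.20 ± 0.55, edgeR adjusted p = 1.30e-04). Its peak, chr11:5862788-5863051, lay 13171 bases from the nearest mK3 peak. Gpr176, an orphan receptor gene, was at 134, 121 and 139 CPM in mK3 and 17.6, 17.0 and 18.4 CPM in mK4 (log2 fold change -2.89 ± 0.09, edgeR adjusted p = 1.17e-05). Fblim1, a gene of cell-matrix adhesions, had a log2 fold change of -3.00 ± 0.18, Sp140, a chromatin reader gene, -2.35 ± 0.15, and Pkdcc, a secreted kinase gene, -2.29 ± 0.25. These 5 genes were chosen among genes whose libraries did not overlap between the lines, so their separation is no result. Their start peaks had fold enrichments of 3.44 to 6.13.

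The strongest mK4-only peaks lay mostly inside or between genes. The strongest of all, chr13:19364219-19364742 with a fold enrichment of 13.9, lay in the body of Stard3nl. The next, chr11:110511302-110511952 (13.7), lay in Map2k6, which encodes an activator of p38 kinases. Map2k6 was at 13.1, 13.4 and 13.7 CPM in mK3 and 65.6, 52.9 and 54.4 CPM in mK4 (log2 fold change 2.10 ± 0.11, edgeR adjusted p = 5.62e-05), and 9 mK4-only peaks lay in or just before it. The peak chr12:91305473-91306176 (13.6) lay in Cep128, a centriole gene, which went from 18.7 ± 1.54 to 22.03 ± 1.37 CPM (mean ± SD, n = 3 libraries) and was not called (edgeR adjusted p = 0.135). A strong peak thus occurred in genes with and without a call.

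Of the 20 strongest mK4-only peaks, those of Akr1e1 and Scn2a lay at a start with no mK3 peak, and both genes were called higher. The Akr1e1 peak, chr13:4608964-4609489 (fold enrichment 12.7), had its summit 79 bases from the start of this aldo-keto reductase gene. Akr1e1 was at 0.424, 0.521 and 0.451 CPM in mK3 and 20.8, 20.5 and 16.2 CPM in mK4 (log2 fold change 5.36 ± 0.19, edgeR adjusted p = 1.75e-05). The Scn2a peak, chr2:65668409-65668791 (12.0), had its summit 84 bases from a start that lies inside this sodium channel gene. Scn2a was at 3.26, 4.29 and 2.40 CPM in mK3 and 12.7, 9.90 and 10.7 CPM in mK4 (log2 fold change 1.75 ± 0.25, edgeR adjusted p = 2.38e-03). Both genes separated the lines with no overlap. The peaks lay 161917 and 138876 bases from the nearest mK3 peak.

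Other strong peaks lay in or near genes called in either direction or not called. A peak of fold enrichment 12.8 lay in B3galt1, a glycosyltransferase gene that went from 19.2 ± 2.78 to 11.4 ± 3.10 CPM, a log2 fold change of -0.75 ± 0.23 (edgeR adjusted p = 0.0419). That call was lost without mK3 library 2 (adjusted p = 0.107 in edgeR), mK3 library 3 (0.118), mK4 library 2 (0.114) or mK4 library 3 (0.0870), and also without TMM scaling (0.0511) and with no filter on low counts (0.0615). With the replicate number as a block the call was lost too (adjusted p = 0.11 in edgeR). A peak of 12.6 lay in Proser2, which was called higher, at 0, 0.212 and 0.113 CPM in mK3 and 5.41, 5.96 and 8.15 CPM in mK4 (log2 fold change 5.91 ± 1.13, edgeR adjusted p = 7.61e-03). Proser2 also had an mK4-only peak alone at its start, chr2:6130028-6130381, of fold enrichment 5.09. Lsm6, an RNA-binding protein gene 23000 bases from another peak of 12.6, was not called (-0.46 ± 0.17, adjusted p = 0.0698 in edgeR), but was called in edgeR without mK4 library 3 (0.0267) and in DESeq2 (0.0254). Further peaks of 11.7 to 12.6 lay in Stk39, Tiam1 and Nrxn3.

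The share of genes called higher fell with distance from the nearest mK4-only peak. It was 30.7% of 1592 tested genes with such a peak within 1 kb of the start, 23.9% at 1 to 5 kb, 21.3% at 5 to 20 kb, 18.1% at 20 to 50 kb, 17.0% at 50 to 100 kb and 17.6% beyond. The share called lower was 18.9% within 1 kb and 28.5% beyond 100 kb. Among genes with a shared peak and no mK4-only peak at the start, the share called higher was 23.7% with an mK4-only peak at 1 to 5 kb, 21.6% at 5 to 20 kb and 17.3% beyond 100 kb, with intervals of 19.4 to 28.5 and 14.7 to 20.1 at the ends. Distance to a shared peak gave another order, with 19.6% higher within 1 kb and 34.3% beyond 100 kb.

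Genes that held more mK4-only peaks were called higher more often. Counting the gene body and the 10 kb before the start, 17.0% of 5362 tested genes without such a peak were higher in mK4, 22.2% with 1, 29.6% with 2, 35.3% with 3 to 4 and 46.2% of 221 with 5 or more (interval 39.4 to 53.0). The share called lower went from 23.7% to 18.6%. Counted in the same way, shared peaks gave 23.7% higher with none and 14.4% with 5 or more, and 20.7% and 40.0% lower. Long genes hold more peaks, and the median length rose from 17498 bases without a mK4-only peak to 215539 bases with 5 or more. Within each of 3 equal classes of gene length the order was the same. The share called higher with none, 1, and 2 or more was 13.9%, 19.5% and 29.8% in the shortest class, 17.1%, 22.4% and 30.7% in the middle, and 19.5%, 23.2% and 35.0% in the longest. Median length still differed within the longest class, at 53203 bases with none and 104924 with 2 or more. In the shortest class it was 4475 and 4159 bases. The median level in mK3 also rose with peak number, from 11.5 CPM with none to 37.7 CPM with 5 or more. The part of gene length and RNA level in this order was not tested.

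**Figure D4:**
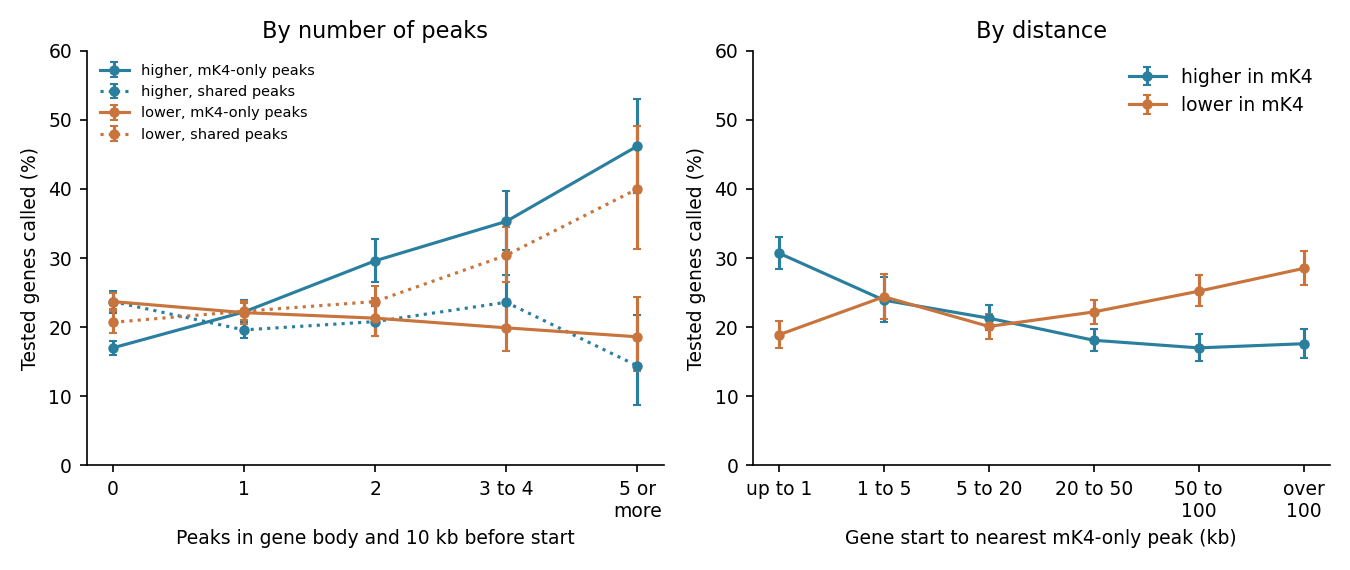
Share of tested genes (%) called higher (blue) or lower (orange) in mK4. Left, by the number of mK4-only peaks (solid) or shared mK4 peaks (dotted) in the gene body and 10 kb before the start. Right, by distance from the gene start to the nearest mK4-only peak. Bars are exact binomial 95% intervals. With 5 or more mK4-only peaks 46.2% are higher.

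Single genes with many peaks did not all follow this order. Dst, which encodes the cytoskeletal linker dystonin, also held 21 mK4-only peaks, and its RNA was lower in mK4, at 334, 310 and 283 CPM in mK3 and 246, 219 and 222 CPM in mK4 (log2 fold change -0.43 ± 0.09, edgeR adjusted p = 8.27e-03). Sox5, a transcription factor gene with 17 such peaks and none within 1 kb of its start, was at 29.3, 32.0 and 18.6 CPM in mK3 and 104, 111 and 107 CPM in mK4 (log2 fold change 2.01 ± 0.21, edgeR adjusted p = 6.89e-04). Magi1, which encodes a scaffold of tight junctions, held 13 and was at 10.5, 9.35 and 11.9 CPM in mK3 and 53.7, 44.2 and 66.9 CPM in mK4 (log2 fold change 2.38 ± 0.19, edgeR adjusted p = 2.20e-04). In these 3 genes the libraries of the lines did not overlap.

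Plekha5 and Mical3 held 12 peaks each and rose too, at log2 fold changes of 1.64 ± 0.23 and 1.29 ± 0.11 (edgeR adjusted p = 2.21e-03 and 2.66e-04). Mical3 encodes a monooxygenase of the MICAL family. Of the 10 genes with the most peaks, the other 4 were not called: Camta1 and Foxp1 (15 each), Nckap5 (13) and Glis3 (12), with log2 fold changes from -0.15 (Glis3) to 0.26 (Foxp1). Foxp1 and Glis3 encode transcription factors, and Glis3 is linked to cystic kidney disease.

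Some mK4-only peaks lay in runs. In windows of 100 kb, 3522 windows held 1 such peak and 2 windows held more than 10. The fullest, chr6:125400001-125500000, held 12 with 1 shared mK4 peak and 3 mK3 peaks. It contains the start of Cd9, a tetraspanin gene, which had an mK4-only peak and no mK3 peak at the start and went from 223, 252 and 268 CPM in mK3 to 616, 678 and 680 CPM in mK4 (log2 fold change 1.41 ± 0.09, edgeR adjusted p = 8.73e-05). Next came chr11:84000001-84100000 with 11, no shared peak and 1 mK3 peak. Dusp14, a phosphatase gene that starts there, was at 36.3, 19.2 and 43.7 CPM in mK3 and 26.2, 18.5 and 20.2 CPM in mK4 and was not called (adjusted p = 0.178 in edgeR), but was called in edgeR as lower without mK3 library 2 (0.0213).

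The window chr1:189700001-189800000 held 10 and the start of Ptpn14, a phosphatase gene that restrains YAP signalling. Ptpn14 was at 230, 172 and 186 CPM in mK3 and 341, 357 and 400 CPM in mK4 (log2 fold change 0.90 ± 0.13, edgeR adjusted p = 2.16e-03). The window chr8:122100001-122200000 also held 10 and no start of a tested gene. In chr2:35200001-35300000, with 9, the actin-severing gene Gsn fell by 0.35 ± 0.07 on the log2 scale (edgeR adjusted p = 0.0102) and the small GTPase gene Rab14 was not called (log2 fold change -0.03 ± 0.08, edgeR adjusted p = 0.837). The Gsn call was lost without TMM scaling (0.0580). The RNA of genes starting in these runs therefore did not move in 1 direction.

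Gene lists for kidney cell types and pathways were then read for the peaks they held. Listed genes were counted where a start lay on the chromosomes used, and a gene held a peak if one lay in its body or the 10 kb before it. The background of called genes was that given above. Of 11 such nephron progenitor genes, 3 held a mK4-only peak. Of these Pax2 and Sall1 rose, and Hoxd11 had too few counts to test. Pax2 and Sall1, at 0 in mK3, could pass the filter on low counts through mK4 alone, so their calls are no support for a direction. The same holds for other listed genes at 0 in all mK3 libraries, such as Pou3f3 and Aldh1a2. Of the 6 tested progenitor genes without a mK4-only peak, 3 were lower and 3 were not called. In the list for induced mesenchyme and renal vesicle, 5 of 11 genes held one. Pax8, Irx2 and the transcription factor gene Pou3f3, which was at least 42.5-fold higher from 0 in mK3, rose, the sulfate donor synthase gene Papss2 fell by 2.16 ± 0.26 on the log2 scale, and Emx2 was not called. Among 5 tested genes without one, 3 were higher and 1 lower.

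Ureteric bud and collecting duct genes with an mK4-only peak alone at the start were Pax2, Elf3 and Tfap2a, and all 3 rose. Each could pass the filter on low counts through mK4 alone, so their calls are no support for a direction. These 3 were the only called genes among the 5 tested genes of this list with a peak in the body or the 10 kb before it. Of the 6 tested genes without one, 3 were also higher and 0 lower. The epithelial transcription factor gene Elf3 had no counts in mK3 and 2.96, 2.46 and 4.54 CPM in the mK4 libraries, a rise of at least 137-fold (edgeR adjusted p = 5.68e-04). Tfap2a, at 0.0348 CPM in 1 mK3 library and 0 in the others, was at 2.01, 3.23 and 2.83 CPM in mK4 (log2 fold change 7.69 ± 1.17, edgeR adjusted p = 3.13e-03). Of 11 tubule genes with a peak, 8 were tested, 4 rose and 2 fell. Of the 4 tested tubule genes without one, 2 were higher and 2 lower. The sodium pump gene Atp1b1 rose by 2.99 ± 0.19 on the log2 scale, and Spp1, the one tubule gene with an mK4-only peak alone at the start, rose by 1.32 ± 0.07. Cubn and the polycystin gene Pkd2 fell by 0.99 ± 0.25 and 0.87 ± 0.10. The Cubn call (adjusted p = 0.0216 in edgeR) was lost without mK3 library 1 (0.0656), mK3 library 3 (0.0559) or mK4 library 3 (0.0674).

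Epithelial junction genes split by whether they held a peak. Of 18 listed genes, 8 held an mK4-only peak and 7 of those were tested, with 6 higher in mK4. Tjp3 was not called (adjusted p = 0.305 in edgeR), but was called higher without mK3 library 1 (0.0436). Among the 4 tested genes without one, 2 were lower and 2 were not called. Baiap2l1, which encodes a membrane-bending adaptor, was at 1.91, 3.64 and 3.55 CPM in mK3 and 254, 243 and 231 CPM in mK4 (log2 fold change 6.32 ± 0.30, edgeR adjusted p = 3.98e-05). The tight junction gene Cldn1, with an mK4-only peak alone at the start, was at 0.132, 0.476 and 0.354 CPM in mK3 and 125, 116 and 114 CPM in mK4 (log2 fold change 8.53 ± 0.46, edgeR adjusted p = 6.25e-05). The polarity gene Pard3 held 8 of these peaks and rose by 0.60 ± 0.09. Jup and Pard6b also rose, by 1.15 ± 0.25 and 2.41 ± 0.32. Grhl1, a regulator of junction genes, was called higher at 4.56 ± 1.27, but its adjusted p of 0.0310 in edgeR rose to 0.0611 or more without mK3 library 3 or any 1 of the mK4 libraries, and to 0.0501 with no filter on low counts. With the replicate number as a block its adjusted p was 0.103 in edgeR. The labels call mK4 differentiated towards epithelium, but markers of mature epithelium showed little RNA in either line. Over 8 genes the summed level was 0.640 to 2.46 CPM in mK3 and 0.276 to 0.623 CPM in mK4. Epcam, Cldn3, Cldn4, Cldn7 and Krt18 were at 0 in mK4, and Cdh1, Cldn3, Cldn4, Cldn7, Krt8 and Krt18 were at 0 in mK3. Summed over 6 genes, renal vesicle markers were at 10.0 to 11.3 CPM in mK3 and 1670 to 1760 CPM in mK4. Cdh6 and Fgf8 were at 0 in mK3, and Fgf8 was also at 0 in mK4. The mK4 sum was not spread evenly, since Pax8 was at 35.6 to 43.5 CPM. Nephron progenitor markers, summed over 8 genes, were at 20.8 to 22.2 CPM in mK3 and 200 to 268 CPM in mK4. Meox1, Pax2, Sall1 and Wt1 were at 0 in mK3, and Six2 was at 0 in mK4. Stromal markers, summed over 5 genes, were at 253 to 286 CPM in mK3 and 104 to 124 CPM in mK4, with Tcf21 at 0 in both.

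Pathway lists differed in direction. All 4 Notch genes with an mK4-only peak rose, among 13 listed, against 1 higher and 2 lower of 7 tested genes without one. They were the receptor Notch1 (2.08 ± 0.19 on the log2 scale), the nuclear effector Rbpj (2.12 ± 0.16), the feedback target Nrarp (2.48 ± 0.45) and the glycosyltransferase Lfng (1.32 ± 0.19), the last of these and Nrarp with the peak alone at the start. Of 6 tested Hedgehog genes with a peak, Smo, Ptch1 and Gli2 rose, Disp1 fell by 2.14 ± 0.26, Sufu was not called and Gli3, with 8 peaks, fell by 0.34 ± 0.07. The Gli3 call (adjusted p = 0.00735 in edgeR) was lost without TMM scaling (0.0730). Of the 2 tested Hedgehog genes without a peak, 1 was higher and 0 lower. In the Wnt list, 5 genes with a peak were tested and Lgr6, an R-spondin receptor gene with 6 of them, rose by 2.27 ± 0.15 and the other 4 were not called. Of the 4 tested Wnt genes without a peak, 3 were higher. In the FGF list the ERK-responsive factor gene Etv1 rose by 5.10 ± 0.54, as 1 of 2 tested genes with a peak, and 5 of the 6 tested genes without one were higher. In the TGF-beta list Tgfbi rose by 3.32 ± 0.24 among 8 tested genes with a peak, of which 2 were higher and 3 lower. The 2 tested genes of this list without a peak were lower.

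Interferon-response genes went the other way. Of 14 listed, 7 held an mK4-only peak, with 6 lower in mK4 and Ifit2 higher, and of 7 tested genes without one 6 were lower. All 4 with an mK4-only peak alone at the start fell: Ifit1, the RNA sensor Ddx58, Ifi35 and Oas3. Ifit1 was at 229, 233 and 239 CPM in mK3 and 76.6, 84.8 and 72.0 CPM in mK4 (log2 fold change -1.59 ± 0.08, edgeR adjusted p = 4.57e-05). Its peak, chr19:34640701-34640923 (fold enrichment 3.05), lay 21137 bases from the nearest mK3 peak. Ddx58 was at 241, 257 and 246 CPM in mK3 and 148, 147 and 136 CPM in mK4 (log2 fold change -0.79 ± 0.06, edgeR adjusted p = 2.29e-04). The libraries of the lines did not overlap in either gene.

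Genes of mesenchyme, stroma and contractile cells held mK4-only peaks too. Of 15 listed mesenchymal genes 8 held one, with 5 lower in mK4, and of 7 tested without one 5 were lower. Twist2 and Vim rose, by 0.75 ± 0.06 and 0.42 ± 0.06 on the log2 scale. Fbn1, which encodes fibrillin of the matrix, held 3 and was at 1687, 1413 and 1380 CPM in mK3 and 12.2, 10.2 and 11.7 CPM in mK4 (log2 fold change -7.04 ± 0.14, edgeR adjusted p = 4.40e-06). Col5a1, a collagen gene with 4, fell by 2.05 ± 0.13. Zeb2, a repressor of epithelial genes with an mK4-only peak alone at a start inside the gene, fell by 1.46 ± 0.16. Of 5 contractile genes with a peak 1 was higher and 2 lower, and of 7 tested without one 0 were higher and 6 lower. Mylk rose (1.77 ± 0.25) with an mK4-only peak alone at a start inside the gene, while Cald1 fell by 1.42 ± 0.15. Cnn1 was called lower (-5.87 ± 1.64), but its adjusted p of 0.0308 in edgeR rose to between 0.0510 and 0.0815 without any 1 of 5 libraries, mK4 library 1 being the exception, and to 0.0505 with no filter on low counts. With the replicate number as a block its adjusted p was 0.0574 in edgeR. Of 3 stromal genes with a peak, Meis2 fell by 1.45 ± 0.09, Tbx18 rose by 0.57 ± 0.15 and Aldh1a2, a retinoic acid synthesis gene, had no counts in mK3 and 1.36, 0.263 and 3.27 CPM in the mK4 libraries, a rise of at least 67.5-fold (edgeR adjusted p = 0.0120). The Tbx18 call (adjusted p = 0.0266 in edgeR) was lost without mK3 library 2 (0.0826), mK3 library 3 (0.0795) or mK4 library 1 (0.0611). It was also lost with the replicate number as a block (0.0691). Of the 3 tested stromal genes without a peak, 1 was higher and 2 lower.

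The remaining lists held few called genes with such a peak. The 4 tested podocyte genes with a peak had adjusted p of 0.0923 (Magi2) to 0.725 (Plce1) in edgeR, and Vegfa, with the peak at its start, had a log2 fold change of -0.25 ± 0.24. Magi2 was called higher without mK3 library 1 (adjusted p = 0.0310 in edgeR) and in DESeq2 (0.00829). Of the 3 tested podocyte genes without a peak, 0 were higher and 1 lower. In the cholesterol list both genes with a peak were higher, as were 7 of 8 without one. The lists for endothelium and leukocytes had 2 and 1 tested genes with a peak. Among endothelial genes 1 of the 2 with a peak was higher, and the 2 tested without one were lower. Summed endothelial markers were at 3.48 to 4.64 CPM in mK3 and 7.38 to 8.17 CPM in mK4, with Cdh5 and Emcn at 0 in mK3 and Kdr and Tek at 0 in mK4. Leukocyte markers were at 1.08 to 1.84 and 1.09 to 1.67 CPM, with Itgam and Tyrobp at 0 in both lines.

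Promoter windows with an mK4-only peak lay between those with a shared peak and those without a peak in base composition. On the 14 chromosomes, 1176 of 24654 RefSeq windows of 300 bases overlapped an mK4-only peak and no mK3 peak. Their median content of G and C was 59.3%, against 63.0% in 6078 windows with a shared peak and 49.3% in 16579 windows with none. The median ratio of observed to expected CpG was 0.717, against 0.816 and 0.256. CpG-rich promoters are typical of broadly used genes.

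Letters of 25 binding motifs were searched on both strands. GGGCGG (SP/KLF) occurred in 59.1% of windows with an mK4-only peak, 72.3% with a shared peak and 36.5% of all windows. CCAAT (NFY) occurred in 31.3%, 44.3% and 37.3%, so that it was less frequent at mK4-only peaks than over all windows. GCATGCGC (NRF1) occurred in 3.91%, 6.55% and 2.75%, and CCGGAA (ETS) in 28.5%, 33.6% and 15.5%. These 4 motifs were less frequent with mK4-only than with shared peaks.

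Other motifs differed in both directions. TGANTCA (AP-1) occurred in 8.42%, 5.03% and 7.78% of windows with an mK4-only peak, with a shared peak and of all windows. GAAANNGAA (IRF) occurred in 9.10%, 5.82% and 8.21%, AGATAA, bound by GATA factors, in 7.14%, 4.0% and 11%, TGTTTAC (FOX) in 3.40%, 1.89% and 3.63%, and CAGGTG (bound by ZEB and SNAI factors) in 18.9%, 14.5% and 20.3%. AP-1 and IRF letters were thus near or above the share of all windows, and GATA letters below it. Letters for PAX factors (3.23% against 5.02%), CRE (2.98% against 4.38%), the CTCF core (16.3% against 17.6%), TCF/LEF (1.53% against 2.12%), SOX (1.28% against 1.58%), STAT (1.02% against 1.33%) and GRHL factors (0.255% against 0.28%) were less frequent with mK4-only than with shared peaks. The other letters searched were, for CRE, TGACGTCA, for TEAD factors, GGAATG, for RUNX factors, TGTGGT, for HNF1 factors, GTTAATNAT, for the core of CTCF, AGGGGGC, for GRHL factors, AACCNGGTT, for TCF/LEF factors, CTTTGAT, and for LHX and HOX factors, TAATTA. Those for SOX factors were ACAATGG, for NFI factors TTGGCA, for C/EBP factors TTGCNNCAA, for STAT factors TTCCNGGAA, for another E-box CATCTG, for nuclear receptors AGGTCA, for a core of PAX factors GCGTGAC and for a core of sine oculis homeobox factors TCAGGTTTC. The HNF1 and GRHL letters were each found in 3 of the 1176 windows. Some letters overlap, as those for LHX and HOX factors do with those for HNF1 in the Pcbd1 window. A match is a description of the letters and does not show binding.

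**Figure D5:**
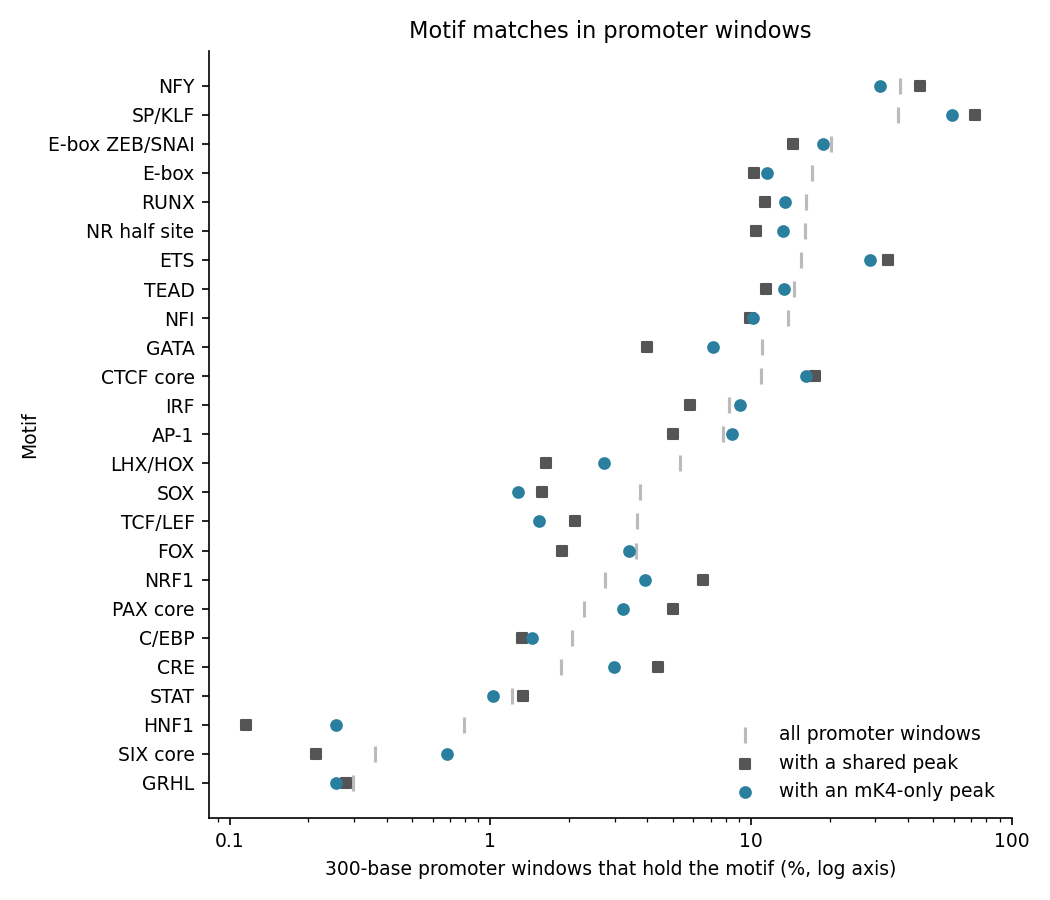
Share of 300-base promoter windows (%, log axis) that hold each of 25 motifs on either strand, for 1176 windows with an mK4-only peak (circles), 6078 with a shared peak (squares) and all 24654 (ticks). SP/KLF letters are at 59.1% and 72.3% in the first 2 groups, and AP-1 letters at 8.42% and 5.03%.

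The printed windows show where such letters fall. The Akr1e1 window holds CCAAT at 3 places, 143, 102 and 70 bases before the start, and AGATAA 162 bases before it. Sall1 holds GGGCGG at 4 places between 153 and 37 bases before the start, on both strands. In Pcbd1 the GTTAATNAT match begins 24 bases before the start and lies within the mK4-only peak, while its GATA and nuclear receptor matches lie outside it. Ifit1 holds GAAANNGAA at 3 places on the opposite strand, 109, 103 and 84 bases before the start, the first pair overlapping, all within the mK4-only peak. Pax8 holds 1 such match, and 1 each of the NFY, SP/KLF and ZEB/SNAI letters. Scn2a holds 1 match each to the TEAD and RUNX letters.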

How the data were processed

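RNA was taken from the deposited table of whole-number read counts (6 libraries, 3 per line, not normalized) and open chromatin from the authors' peak lists (1 library per line). The peak lists give a fold enrichment (a ratio), a -log10 q and another column, the summit offset in bases, as deposited by the authors in narrowPeak column order. Build mm10 and the tools MACS3, Bowtie2, STAR 2.7.10a, HTSeq 2.0.2, deepTools, bedtools and SAMtools are listed, with no roles, per the submitters' processing notes. The sources used here do not give the peak threshold or which tool made which file, and the depth of the ATAC libraries is unknown. Differences in that depth or threshold would change which peaks are listed in 1 line only.

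The members, the 18 gene lists and the tests were chosen with earlier results of these data known. Peaks with at least 1 bp in common counted as shared (pandas 2.3.3 and NumPy 2.4.6 under Python 3.11.15). Ensembl genes were fitted with edgeR 4.0.16 in R 4.3.3 (filterByExpr, TMM, robust glmQLFit and glmQLFTest), with DESeq2 1.42.0 as an alternative, and 20405 of 55558 genes were tested. The fitting step was tested on simulated data. Of the tested genes, 16858 matched RefSeq genes and 9341 had a RefSeq start (GRCm38.p6) on the chromosomes used. A gene could have several starts. RNA libraries correlated at 0.982 to 0.986 within a line and 0.876 to 0.883 between lines over genes, and no replicate pair was within sampling noise. The floor of 3 counts in a library came to no more than 0.0242 CPM (mK3) and 0.022 CPM (mK4), and floors and binomial intervals (SciPy 1.17.1) cover counting error only. Figures were drawn with matplotlib 3.10.9.

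Named were the 20 strongest peaks with the nearest gene start within 100 kb, the 10 largest increases and 5 largest decreases among called genes with an mK4-only peak alone at the start (lines not overlapping, mean log2 CPM of at least 3, standard symbols), up to 3 genes per list with the most mK4-only peaks, the 10 genes with the most such peaks, and the 5 fullest runs of 100 kb. From these, genes without a test or a standard symbol were mostly left out. Genes named outside this rule to complete a count (Cldn1, Spp1, Lfng, Irx2, Jup, Pard6b, Tjp3, Emx2, Smo, Ptch1, Gli2, Twist2, Vim, Vegfa, Ifi35, Oas3, Ifit2) were chosen after their values were seen. Alternatives were other normalizations, filters, peak thresholds and start windows, the replicate number as a block, and leaving out each RNA library.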

Additional observations from a re-analysis of the deposited data

How the results depend on the processing

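The number of mK4-only peaks depended most on the length of the mK4 list: it was 3383 among mK4 peaks with a fold enrichment of at least 5, and 6194 among the strongest mK4 peaks, as many as the mK3 list holds. Under 4 other overlap or threshold rules it was 9845 to 14506. Limits of depth apply to genes at 0, whose folds are bounds, and the depth of the ATAC libraries is unknown.

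The share of genes with an mK4-only peak at the start called higher stayed above the share over all tested genes with a start in each fit tried, and the share called lower stayed below it. Higher against all, it was 39.6% and 24.2% in DESeq2, 31.2% and 16.0% with no filter on low counts, and 30.1% to 33.4% against 16.4% to 18.8% when each library was left out. With genes that also had an mK3 peak at the start, 30.7% were higher and 18.9% lower. With the mK4 list shortened to the length of the mK3 list, an alternative chosen after the data were seen, 41.9% were higher. Lower against all, it was 18.0% and 27.5% in DESeq2, 18.6% and 25.1% over genes that reached 1 CPM in each of the 6 libraries, 11.1% and 18.8% without TMM scaling, 11.7% and 17.1% with no filter, and 11.6% to 13.0% against 18.7% to 19.7% when each library was left out. The share of genes with 5 or more mK4-only peaks called higher was 38.1% to 44.2% when each library was left out. Leaving out TMM scaling raised the median log2 fold change of all genes by 0.106. The cause of these shifts was not tested.

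The replicate numbers did not pair the libraries: deviations of same-numbered libraries correlated at -0.0242, 0.0106 and 0.0112, and those of different numbers at -0.0386 to 0.033, so that not every library correlated best with its own number. With the number as a block, 3281 genes were higher and 3129 lower (4237 and 3988 without it), 30.6% of genes with an mK4-only peak at the start were higher against 16.5% of all with a start, and 38.5% of genes with 5 or more were higher.

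The share of windows with GGGCGG was 62.2% where the mK4-only peak covered at least 150 of the 300 bases, an alternative chosen after the data were seen. The planned motif search within 50 bases of the summits was not run, since no genome was used here. Of 88 named genes in 1027 comparisons with an alternative fit, 992 kept their call and direction, 29 lost the call, 6 gained it and 0 reversed. The calls that changed belonged to 11 genes: B3galt1, Lsm6, Grhl1, Gli3, Cnn1, Cubn, Tbx18, Dusp14, Gsn, Tjp3 and Magi2.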
